A study of Mus musculus with 12 samples.

Results

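Mechanoreceptors of the skin with unmyelinated C fibres or thin A-delta fibres are described here through 8 marker genes: Th, Slc17a8, Tafa4, Zfp521, P2ry1, Cdh9, Baiap2l1 and Tspan8. The members were chosen by symbol, taking every array probe that the platform annotation gives to one of these names. In this annotation 6 of the 8 genes have a probe, out of 16593 named genes, and they share 7 probes, because Zfp521 has 2. Cdh9, a type II cadherin, and Baiap2l1, a protein that bends and links membrane to actin, have no probe listed, so their levels were not measured. Total RNA was pooled from dorsal root ganglia of lumbar levels 3 to 6 of mice aged 15 days, of mixed strain background (C57/BL6 with 129Ola). The arrays comprised 6 pools of Isl1-Cre c-Maf conditional mutants and 6 pools of controls labelled wildtype, each on its own single-colour Illumina array. In the mutants Cre recombinase expressed from the Isl1 gene removes Maf, a basic leucine zipper transcription factor, wherever Isl1 has been active, which takes in nearly all sensory neurons of the ganglion rather than the touch neurons alone. The labels give neither the number of animals in a pool nor whether the controls carried Cre or a floxed allele, so each p-value reflects only how pools differ from one another, which may be technical in part.

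C-fibre low-threshold mechanoreceptors end around hair follicles and respond to light, slow stroking of the skin. In mouse they are recognised by tyrosine hydroxylase, by the vesicular glutamate transporter VGLUT3 and by the secreted protein TAFA4. D-hair afferents have thinly myelinated A-delta axons, are the most sensitive hair follicle afferents, and are recognised by the neurotrophin receptor TrkB together with the T-type calcium channel of Cacna1h. Neither Ntrk2, the TrkB gene, nor Cacna1h is among the members. Which of these neuron types the members other than Th, Slc17a8 and Tafa4 mark was not tested here. The comparison asks whether removal of Maf, which is needed for rapidly adapting touch neurons with thick fibres, changed transcripts that mark these other touch neurons.

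None of the measured markers passed the test. All 6 genes were detected, at a detection p under 0.05, in 6 of 6 mutant and 6 of 6 control pools, and the values of mutant and control pools overlapped for every one of them. The share of tested probes that passed (limma, Benjamini-Hochberg adjusted p under 0.05) was 0.235%, or 31 of 13177, against 0 of the 6 tested member probes. With 6 members, a count of 0 is what that background share gives, and the count by itself carries no information about them. The sizes do, for RNA of whole ganglia: the log2 changes, mutant minus control, ran from -0.04 to 0.13. The outermost ends of their 95% confidence intervals were -0.30 and 0.34. The widest of these bounds, for Slc17a8, corresponds to a level 1.27-fold higher in mutant pools. Which cells of the ganglion gave these signals was not tested, and the bounds do not limit the change within touch neurons alone. Maf itself was detected in 0 of 6 mutant pools and in 6 of 6 control pools (log2 level 4.57 ± 0.08 in mutant and 7.44 ± 0.29 in control pools, SD, n = 6 each).

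The promoter sequences of 4 of the measured genes are printed because one of the questions about a Maf mutant is which genes carry the letters Maf proteins bind. They are the 250 bases before a transcription start in RefSeq, build GRCm38.p6, written 5′ to 3′ along the gene's own strand. For Th, Tafa4 and P2ry1 that start is the outer end of the annotated gene, while the Tspan8 window belongs to a later start, 467 bases inside the annotated gene. Capitals mark a match to 1 of the motifs searched. Th and Tafa4 are named markers of the C-fibre type, P2ry1 is the gene whose level followed that of Tafa4 most closely among the members, and Tspan8 is a measured member whose window holds a Maf half-site.
Th (chr7:142899996-142900245, minus strand): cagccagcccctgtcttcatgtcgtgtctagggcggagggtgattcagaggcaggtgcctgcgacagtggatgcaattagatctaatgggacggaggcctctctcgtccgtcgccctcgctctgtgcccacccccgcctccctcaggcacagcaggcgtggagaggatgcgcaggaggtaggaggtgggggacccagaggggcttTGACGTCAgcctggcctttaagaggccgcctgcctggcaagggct
Tafa4 (chr6:97060412-97060661, minus strand): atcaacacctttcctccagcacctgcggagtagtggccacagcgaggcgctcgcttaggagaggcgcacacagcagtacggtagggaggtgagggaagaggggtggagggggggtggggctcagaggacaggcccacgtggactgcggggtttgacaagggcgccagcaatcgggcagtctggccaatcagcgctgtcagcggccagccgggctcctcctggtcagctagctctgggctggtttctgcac
P2ry1 (chr3:61002535-61002784, plus strand): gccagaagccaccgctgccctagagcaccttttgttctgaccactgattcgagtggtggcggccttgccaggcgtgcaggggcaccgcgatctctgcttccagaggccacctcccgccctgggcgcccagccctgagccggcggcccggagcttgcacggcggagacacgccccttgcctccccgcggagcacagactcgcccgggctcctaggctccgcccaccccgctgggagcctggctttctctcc
Tspan8 (chr10:115817034-115817283, plus strand): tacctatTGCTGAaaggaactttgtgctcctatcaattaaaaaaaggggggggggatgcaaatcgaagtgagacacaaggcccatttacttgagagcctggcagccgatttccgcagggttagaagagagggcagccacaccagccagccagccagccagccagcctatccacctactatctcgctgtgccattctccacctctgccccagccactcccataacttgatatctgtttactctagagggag
Windows on both strands were searched for TGCTGA, the outer part of the half-site that Maf proteins bind, for TGACGTC, 7 letters of the palindromic cyclic AMP response element, and for TGTGGT, a core bound by RUNX factors. A RefSeq window was found for 7 of the 8 members, Slc17a8 having 2, which makes 8 windows; Zfp521 was not searched. TGCTGA stood in 2 of them, at bases -243 to -238 of Tspan8 and at bases -20 to -15 of Cdh9 (also a later start, 365 bases inside the gene), counted from the start site, where 16.1% of all 32851 windows of the same length hold it. TGACGTC stood in Th alone, at bases -45 to -39, and on the other strand at -44 to -38, so that the 2 matches overlap in 1 palindrome, where 2.78% of windows hold it. TGTGGT stood in none of the 8, where 4614 of the 32851 windows hold it. A match is only a run of letters, and its absence says only that these letters are not in this window.

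Th encodes tyrosine hydroxylase, the rate-limiting enzyme of catecholamine synthesis. Its log2 level was 7.78 at the lowest, 7.85 at the median and 8.32 at the highest in mutant pools, against 7.70, 8.01 and 8.27 in control pools. Mutant replicates 1 and 6 and control replicates 1, 2 and 6 lay above 8, and the other 7 pools lay below it, so that high and low pools occurred in both genotypes. The mean was 7.98 ± 0.24 in mutant and 7.997 ± 0.24 in control pools (SD, n = 6 each), a log2 change of -0.02 (SE 0.13, 95% interval -0.30 to 0.26, limma adjusted p = 0.99).

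Slc17a8 encodes VGLUT3, which loads glutamate into synaptic vesicles. Its log2 level was 7.76 at the lowest, 8.04 at the median and 8.59 at the highest in mutant pools, against 7.83, 8.02 and 8.27 in control pools. Mutant replicate 1 was the highest of the 12 pools and mutant replicate 3 the lowest, with all 6 control pools between them. The means were 8.10 ± 0.28 in mutant and 8.02 ± 0.15 in control pools (SD, n = 6 each), a change of 0.08 (SE 0.12, 95% interval -0.18 to 0.34, limma adjusted p = 0.96). Without mutant replicate 1 the change stood at -0.02.

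Tafa4 encodes a small secreted chemokine-like protein released by these afferents. Its log2 level was 8.97 at the lowest, 9.34 at the median and 9.66 at the highest in mutant pools, against 9.16, 9.39 and 9.67 in control pools. Mutant replicate 3 was again the lowest pool, while mutant replicate 1 and control replicate 6 were highest at nearly the same level. The means were 9.33 ± 0.24 in mutant and 9.37 ± 0.19 in control pools (SD, n = 6 each), a change of -0.04 (SE 0.12, 95% interval -0.29 to 0.21, limma adjusted p = 0.99). Without mutant replicate 3 the change stood at 0.03.

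**Figure D1:**
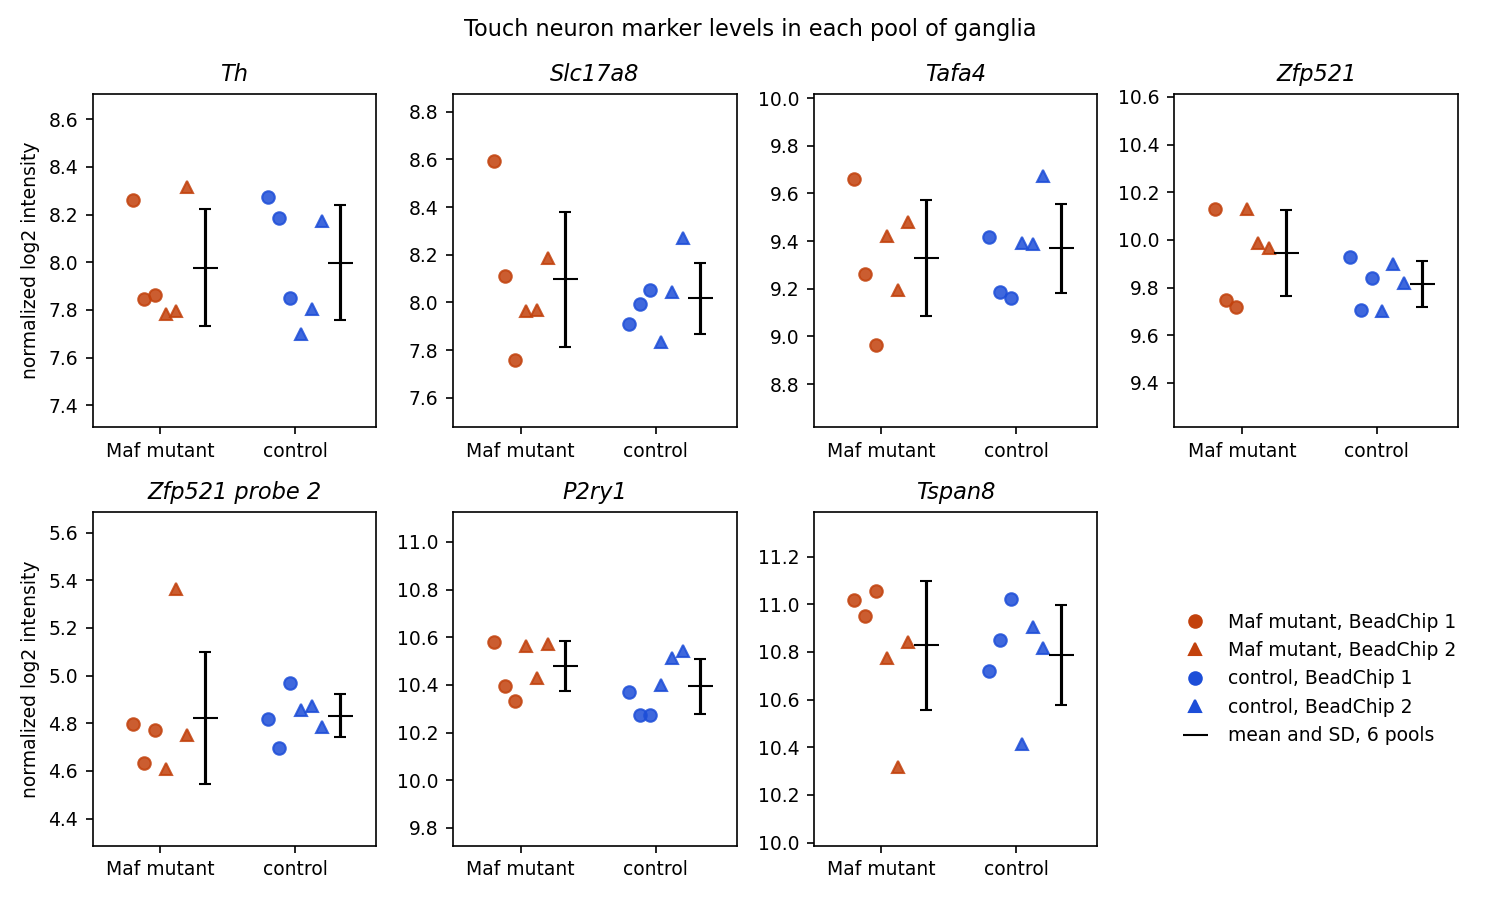
Normalized log2 intensity (vertical axes, each spanning the same range) of the 7 member probes in 6 Maf mutant and 6 control pools, with circles for BeadChip 1, triangles for BeadChip 2 and bars for mean and SD. Mutant and control pools overlap in every panel, and the second Zfp521 probe lies between 4.61 and 5.36.

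Zfp521 encodes a zinc finger transcription factor that binds EBF proteins. Its detected probe stood at a log2 level of 9.72 at the lowest, 9.98 at the median and 10.13 at the highest in mutant pools, against 9.70, 9.83 and 9.93 in control pools. Mutant replicates 1, 4, 5 and 6 lay above all 6 control pools, and mutant replicates 2 and 3 lay within the control range. The means were 9.95 ± 0.18 in mutant and 9.82 ± 0.10 in control pools (SD, n = 6 each), a change of 0.13 that was the largest among the members (SE 0.09, 95% interval -0.06 to 0.32, limma adjusted p = 0.89). The second Zfp521 probe was not well above background: it was detected in 1 of 6 mutant pools and 0 of 6 control pools, averaged 4.82 ± 0.28 in mutant and 4.83 ± 0.09 in control pools (SD, n = 6 each), and was not tested.

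P2ry1 encodes a receptor for ADP that couples to Gq proteins. Its log2 level was 10.33 at the lowest, 10.50 at the median and 10.58 at the highest in mutant pools, against 10.27, 10.38 and 10.54 in control pools. Its spread within groups, pooled over both genotypes (residual SD 0.11), was the smallest of the 6 tested probes, although among control pools alone Zfp521 varied less. The means were 10.48 ± 0.11 in mutant and 10.39 ± 0.12 in control pools (SD, n = 6 each), a change of 0.08 (SE 0.08, 95% interval -0.08 to 0.25, limma adjusted p = 0.93).

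Tspan8 encodes a tetraspanin, one of a family of membrane proteins that organise other proteins at the cell surface. Its log2 level was 10.32 at the lowest, 10.90 at the median and 11.06 at the highest in mutant pools, against 10.41, 10.83 and 11.02 in control pools. Mutant replicate 5 and control replicate 4 lay below all others. The means were 10.83 ± 0.27 in mutant and 10.79 ± 0.21 in control pools (SD, n = 6 each), a change of 0.04 (SE 0.13, 95% interval -0.24 to 0.31, limma adjusted p = 0.99). Without mutant replicate 5 the change stood at 0.14, and without control replicate 4 at -0.04.

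**Figure D2:**
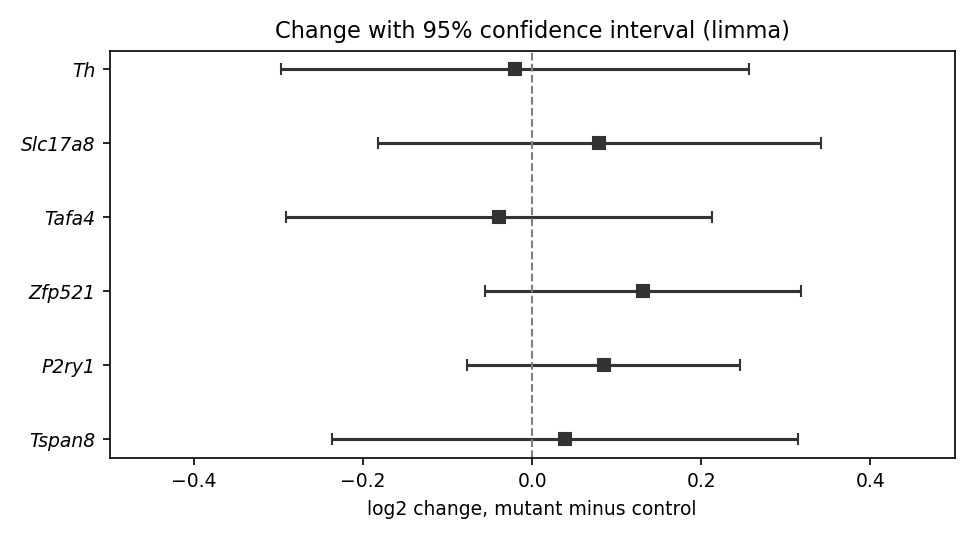
Log2 change, mutant minus control (horizontal axis), of the 6 tested member probes with limma's 95% confidence interval as bars. All 6 intervals cross 0, and Zfp521 at 0.13 is farthest from it.

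The median change of the 6 tested member probes was 0.06, beside 0.00 over all 13177 tested probes, and the median absolute change was 0.06, beside 0.08. At an unadjusted p under 0.05 stood 0 of the 6, where 6.34% of all tested probes did, and groups that did not overlap were found for 0 of 6, where 0.713% of all probes had them. In simulated data with the spread of these arrays the test recovered 62% of probes changed by 0.5 and 98% of those changed by 1 on the log2 scale, but 10% of those changed by 0.25. The simulation drew noise independently for each probe and changed 50 probes at each size, and these shares hold for those settings only. They are averages over probes: residual SD ran from 0.11 (P2ry1) to 0.24 (Th) among the members, beside a median of 0.18 over all tested probes. In RNA of whole ganglia, fewer cells of a type and less RNA per cell cannot be told apart. Each of the 2 BeadChips held 3 mutant and 3 control pools. Within BeadChip 1 the changes ran from -0.11 (Th) to 0.17 (Slc17a8), and within BeadChip 2 from -0.12 (Tafa4) to 0.22 (Zfp521), with a different sign on the 2 chips for Th, Slc17a8, Tafa4 and Tspan8. The limma test of genotype by chip gave adjusted p = 1.00 for each member. It called 0% of all tested probes, and 2.82% of them had p under 0.05 before adjustment.

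The markers varied between pools in ways that genotype did not separate, and some varied together. The correlations between members were added after seeing the data, so their p-values serve as a description. After the mean of each group was subtracted, Tafa4 and P2ry1 followed each other across the 12 pools (Pearson r = 0.89, permutation p = 9e-05, adjusted p = 0.00135 over the 15 pairs of members; Spearman rho = 0.87, permutation p = 6e-04, adjusted p = 0.009). Mutant replicate 3 was lowest among the mutants for both genes and control replicates 2 and 3 were lowest among the controls, while mutant replicates 1 and 6 and control replicate 6 were high for both. Without mutant replicates 1 and 3, the pools farthest from the median of Tafa4, r was 0.89. It was 0.98 within BeadChip 1 and 0.82 within BeadChip 2 (n = 6 pools each, permutation p = 0.00715 and p = 0.032). Among the 9222 other genes tested, Tafa4 had rank 3 by its correlation with P2ry1, and P2ry1 had rank 5 by its correlation with Tafa4. The median r of all genes was -0.03 with Tafa4 and -0.02 with P2ry1. Arrays share preparation and normalization, and what makes pools differ was not tested.

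**Figure D3:**
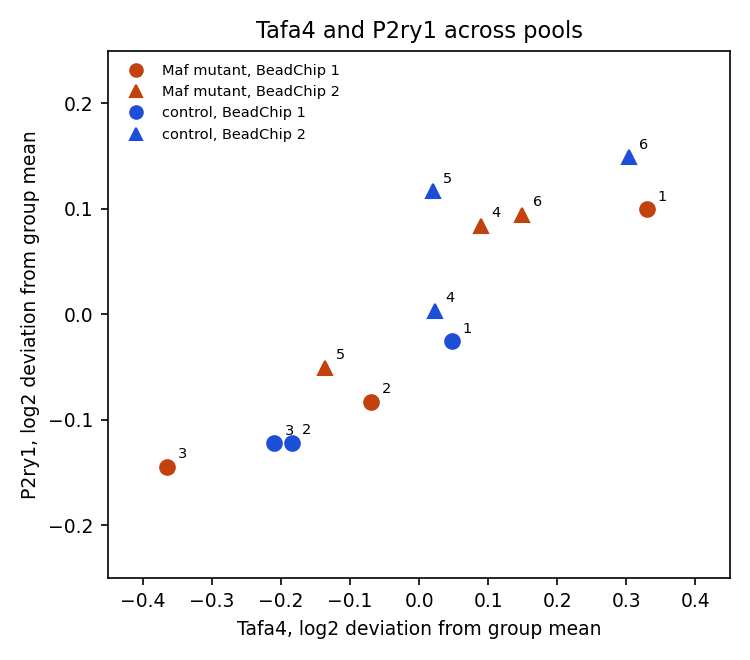
Deviation of each pool from the mean of its group, in log2 units, for Tafa4 (horizontal axis) and P2ry1 (vertical axis), with the replicate number beside each point, orange for mutant and blue for control pools, circles for BeadChip 1 and triangles for BeadChip 2. The 12 points lie along 1 rising line (r = 0.89), with pools of both genotypes at each end.

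Slc17a8 and Tafa4 also correlated (r = 0.75, permutation p = 0.00447, adjusted p = 0.0335), but the rank correlation did not pass (rho = 0.52, permutation p = 0.0826, adjusted p = 0.273), and without mutant replicates 1 and 3 r was 0.45. Within BeadChip 1, which holds both of these pools, r was 0.85, and within BeadChip 2, which holds neither, it was 0.78 (n = 6 pools each, not tested within chips). None of the other 13 pairs passed after adjustment. Th had r = 0.57 with Slc17a8 and 0.49 with Tafa4 (permutation p = 0.0479 and p = 0.112, adjusted p = 0.124 and p = 0.232; rho = 0.55 and 0.32, permutation p = 0.0676 and p = 0.309, adjusted p = 0.273 and p = 0.499). Without mutant replicates 1 and 6 these r values were 0.37 and 0.24. Within chips r of Th with Slc17a8 was 0.54 on BeadChip 1 and 0.91 on BeadChip 2, and with Tafa4 it was 0.79 on both. Tspan8 had r between -0.08 and 0.34 to the other 5 genes over the 12 pools (adjusted p from 0.457 to 0.888). These values differed between the chips: within BeadChip 1 they ran from -0.58 (Th) to 0.07 (Slc17a8), and within BeadChip 2 from 0.56 (Th) to 0.96 (P2ry1). The level of Tspan8 differed between the chips by -0.26 on the log2 scale, BeadChip 2 minus BeadChip 1 (SE 0.11, limma unadjusted p = 0.0393, adjusted p = 0.55).

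**Figure D4:**
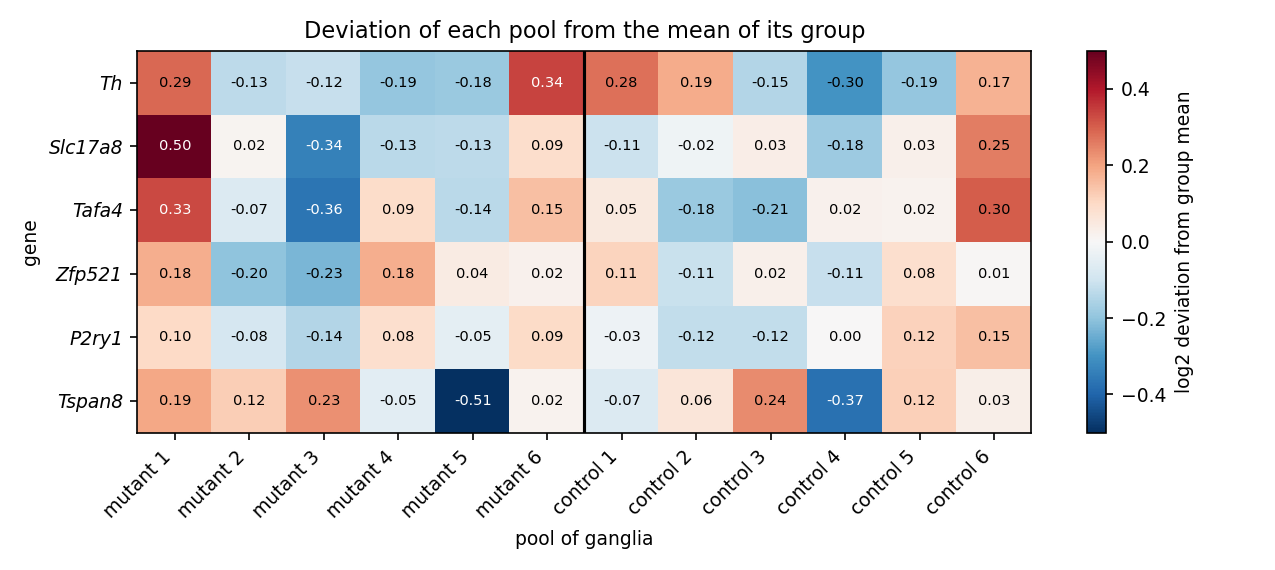
Log2 deviation of the 12 pools (columns, mutant pools to the left of the line) from the mean of their own group for the 6 tested member genes (rows), with red above and blue below the mean. Mutant replicate 1 is above its group mean in all 6 rows, and mutant replicate 3 is below it in all rows but that of Tspan8.

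Mutant replicate 3 was the array least like the others, though by little. Its mean correlation with the other 11 was 0.980, beside 0.985 to 0.988 for the remaining arrays. Without mutant replicate 3, r of Tafa4 and P2ry1 was 0.87. On this array 12822 probes were detected, the fewest of the 12, and on mutant replicate 1 13491, the most. The summed linear level of the 12 sensory neuron marker genes was 50987 in mutant replicate 3 and 50631 in mutant replicate 1, within a range of 49723 to 54702 in mutant and 50712 to 58144 in control pools. The summed level of the 5 satellite glia genes was 3011 and 3587 in those same 2 mutant pools, within 3011 to 5298 in mutant and 3006 to 5915 in control pools. The part of these differences in the levels of the touch neuron markers was not tested.

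The genes most like each member across the 12 pools were named by their correlation after subtraction of group means, among 9222 other genes, as a description. They were Nod1 (r = 0.86), Naa15 (0.83) and Cmtr2 (0.82) for Th, and Lin54 (0.94), Matr3 (0.89) and Brd8 (0.88) for Slc17a8. For Tafa4 they were Lmbr1l (0.91), Vwc2l (0.90) and Cd55 (0.90), and for P2ry1 Lrif1 (0.91), Lmbr1l (0.90) and Tafa4 (0.89). For Zfp521 they were Rims2 (0.95), Htatsf1 (0.93) and Dbt (0.92), and for Tspan8 Herpud2 (0.93), Nubp2 (0.91) and Nvl (0.91). Lmbr1l, a membrane protein related to the limb region 1 protein, is thus shared by the lists of Tafa4 and P2ry1. With those 2 members at r = 0.89 to each other, a shared gene is no separate result. Of the 9222 genes, 39 had r over 0.8 with Tafa4, and 39 with P2ry1. None of the genes named above as most like a member passed the limma test between mutant and control pools, with adjusted p between 0.32 (Vwc2l) and 0.99.

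Genes known for the same neurons or pathways were read next, each by its brightest tested probe, with all genes as the background: 0.271% of 9223 genes passed and the median change was 0.00. Of the other genes of C-fibre low-threshold mechanoreceptors, 5 of 7 were tested and 0 passed in either direction, with a median change of 0.02. Cacna1h, the T-type calcium channel found in both touch neuron types, stood at a log2 level of 10.16 ± 0.10 in mutant and 9.97 ± 0.14 in control pools (SD, n = 6 each), a change of 0.19 (SE 0.08, unadjusted p = 0.0329, limma adjusted p = 0.75). The GDNF receptor Ret stood at -0.12, the mechanically gated channel Piezo2 at 0.05, the transcription factor Runx1 at 0.02 and Mrgprb5, a Mas-related receptor, at 0.00, and Gfra2 and Mrgprb4 were detected on none of the 12 arrays. Runx1 and Mrgprb5 were named after their values were seen.

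Of the other D-hair genes, 4 of 5 were tested and 0 passed, with a median change of 0.12. Necab2, a neuronal calcium-binding protein, stood at 7.30 ± 0.22 in mutant and 7.06 ± 0.13 in control pools (SD, n = 6 each), a change of 0.24 (SE 0.10, unadjusted p = 0.0337, limma adjusted p = 0.75). The TrkB gene Ntrk2, named after its values were seen, stood at -0.05 (SE 0.18, adjusted p = 0.99) by its brightest probe. Colq, the collagen tail of acetylcholinesterase, was detected on none of the 12 arrays. Cacna1h and Piezo2 belong to this list too. With Necab2 and Cacna1h, 2 of the 4 tested genes were at an unadjusted p under 0.05, where 6.51% of all genes were. The list was chosen with earlier results of these data known, so this share is a description and no test of D-hair genes.

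Around tyrosine hydroxylase the array detected the cofactor pathway but little of the rest of catecholamine handling. Of 15 genes with a probe, 5 were tested and 0 passed, with a median change of 0.02. Qdpr (0.14), Spr (-0.12) and Pts (0.05), enzymes that make or recycle the cofactor tetrahydrobiopterin, had adjusted p between 0.94 and 0.95. Dbh, Slc6a2, Slc6a3, Slc18a1, Slc18a2 and Maoa, for the enzyme that makes noradrenaline, transporters of catecholamines and a monoamine oxidase, were detected on none of the 12 arrays, and Ddc, for the decarboxylase that follows tyrosine hydroxylase, on 1. Gchfr and Pnmt were also detected on 1 array each, and Maob, another monoamine oxidase, in 3 of 6 mutant and 2 of 6 control pools. A probe without signal does not show that a transcript is absent: Nefl, a sensory neuron marker, was detected on no array either. Sympathetic neurons also make tyrosine hydroxylase. Of 9 sympathetic marker genes, 7 (Dbh, Gata3, Hand1, Hand2, Npy, Slc18a2 and Slc6a2) were detected on no array and Phox2a in 1 of 6 mutant and 3 of 6 control pools. Chrna3, a nicotinic receptor subunit that sensory neurons can express, was tested and stood at -0.27 (SE 0.15, limma adjusted p = 0.87). The summed linear level of the 9 genes ran from 274 to 339 in mutant and from 287 to 361 in control pools. This sum includes the probes of the 8 genes that were not tested, 7 of them detected on no array. It is therefore largely background and no measure of sympathetic neuron content.

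Of the glutamate genes with a probe, 3 of 5 were tested and 0 passed, with a median of -0.02: Slc17a7 (-0.17), Slc17a5 (-0.02) and Slc17a6 (0.00). Slc17a7 and Slc17a6 encode VGLUT1 and VGLUT2, the other vesicular glutamate transporters. The 4 other TAFA genes were all tested and 0 passed (median 0.04), with Tafa1 at 0.18, Tafa5 at -0.14 and Tafa2 at 0.05. Of the other P2Y receptors 3 of 7 were tested and 0 passed (median -0.02), among them P2ry6 (0.05), P2ry14 (-0.04) and P2ry12 (-0.02). Of 10 genes of Gq signalling and of enzymes that break down extracellular nucleotides, 7 were tested and 0 passed (median 0.01), with Entpd3 (-0.20), Entpd2 (0.16) and the phospholipase Plcb3 (0.06) farthest from 0.

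**Figure D5:**
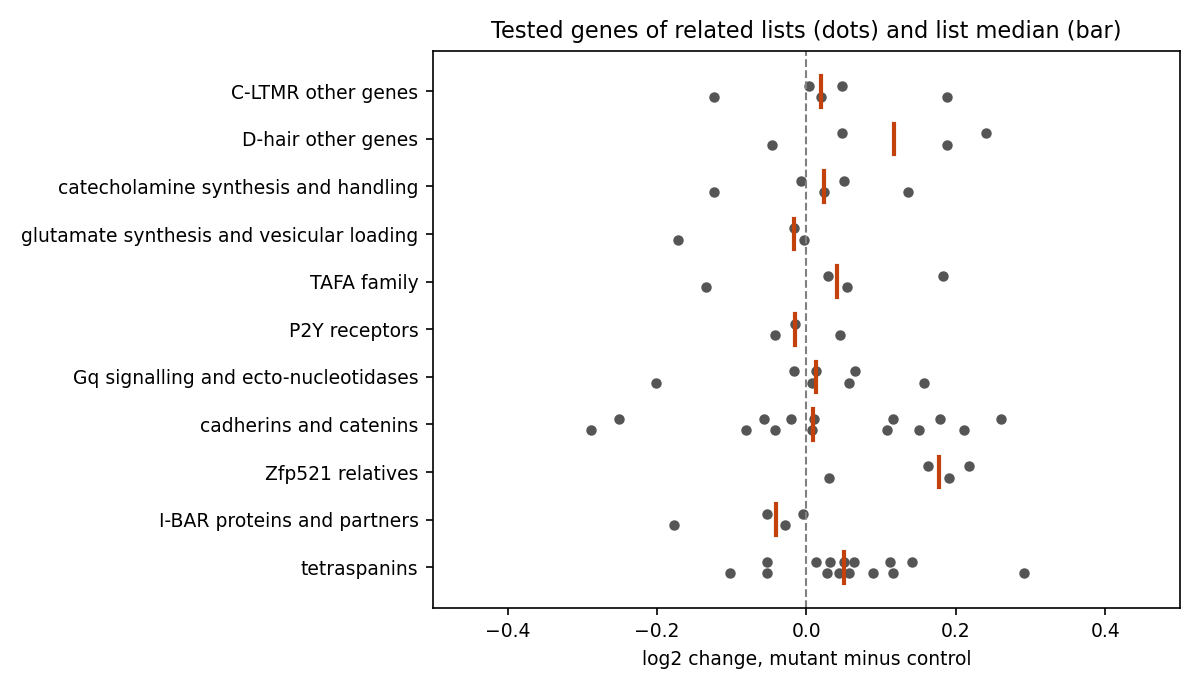
Log2 change, mutant minus control (horizontal axis), of each tested gene in the 11 related lists (rows), with dots for genes and a bar for the list median. All dots lie between -0.29 (Cdh4) and 0.29 (Cd53), and no gene passed the test.

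All 4 measured relatives and partners of Zfp521 stood above 0, from 0.03 to 0.22 with a median of 0.18, beside 0.00 over all genes. Of these, 0 passed, and their shared sign was not tested. Zfp423, the closest relative of Zfp521, stood at 0.22 (SE 0.19), and the transcription factors Ebf2 and Ebf1 at 0.19 and 0.16, with adjusted p between 0.89 and 0.93. Of the cadherins and catenins, the family of the unmeasured Cdh9, 14 of 20 were tested and 0 passed (median 0.01). Cdh4 (-0.29, SE 0.08, unadjusted p = 0.00422, limma adjusted p = 0.38), Cdh7 (0.26) and Cdh6 (-0.25) were farthest from 0. Of 8 proteins related to Baiap2l1 or bound by its family 4 were tested and 0 passed (median -0.04), with Mtss1 at -0.18 (SE 0.06, unadjusted p = 0.00889, limma adjusted p = 0.52), Eps8 at -0.05 and Wasf2 at -0.03. Of 24 other tetraspanins 15 were tested and 0 passed (median 0.05), with Cd53 at 0.29, Tspan2 at 0.14 and Cd9 at 0.12.

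The labelled tissue showed its neuronal and glial markers, and none of the tested genes in the 8 lists of cell type markers passed. Of 12 sensory neuron genes 11 were tested, with a median change of 0.01. Nefh (-0.30, SE 0.07, unadjusted p = 0.000441, limma adjusted p = 0.13), Isl1 (-0.30, adjusted p = 0.77) and Elavl3 (-0.16, adjusted p = 0.89) were farthest from 0. Nefl was detected on no array. The mutants express Cre from the Isl1 gene, and the part of that allele in the Isl1 value was not tested. All 5 satellite glia genes were below 0 (median -0.20). Among them S100b stood at -0.36 (SE 0.08, unadjusted p = 0.00055, limma adjusted p = 0.14), Fabp7 at -0.31 and Glul at -0.20. The 4 Schwann cell genes had a median of -0.12, with Egr2 at -0.27 and Pmp22 at 0.06. Mbp stood at -0.25 (SE 0.08, unadjusted p = 0.00958, limma adjusted p = 0.52). All 5 fibroblast genes were below 0 (median -0.18), with Col1a2 at -0.38, Col1a1 at -0.22 and Lum at -0.18. All 4 tested macrophage genes were above 0 (median 0.09), with C1qb at 0.28, Aif1 at 0.10 and C1qa at 0.09. The median over all genes was 0.00, and the shared signs within the satellite glia, fibroblast and macrophage lists were not tested. The endothelial and platelet list had a median of 0.02 over 5 tested genes, with Pf4 at -0.51, Pecam1 at 0.19 and Itga2b at 0.14. Tspan8 and Baiap2l1 are also epithelial genes. Of 7 epithelial markers, Krt8 (0.10) and Cdh1 (0.01) were tested, Krt14 was detected in 1 of 6 mutant and 4 of 6 control pools, and Krt5, Krt18, Krt19 and Cldn4 were detected on no array.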

How the data were processed

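Each of the 12 arrays measured total RNA of pooled ganglia. The deposited intensity values are bead summaries from GenomeStudio (version not given), per the submitters' processing notes, neither background-subtracted nor normalized. Per the file headers, a detection p-value accompanies each. A second deposited table of processed intensity values, made by steps not given in the sources used here, served as an alternative, floored at 1. Groups and replicate numbers came from the titles, chips from the array identifiers.

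Log2 values were computed with neqc (limma 3.58.1, R 4.3.3; background from detection p-values, offset 16, quantile normalization). Probes detected at p under 0.05 on at least 6 arrays were tested: 13177 of 25697, or 9223 genes by brightest probe. limma compared genotypes, with Benjamini-Hochberg adjustment over all tested probes. Correlations used 100000 permutations of pools. The detected probes per array numbered 12822 to 13491, and precision is limited by how many arrays there are. The steps were tested on simulated data.

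Named genes were all members, called list genes and up to 3 list genes with the largest absolute change, and the 3 genes most correlated with each member. Members and lists were chosen with earlier results of these data known. The correlation between members and its alternatives were added after seeing the data.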

Additional observations from a re-analysis of the deposited data

Results flagged for a closer look

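Of 14 groups of 6 pools examined over the 7 member probes, 1 held a pool that stood well apart from the rest, which by chance happens in about 1 group in 20. It was mutant replicate 5 on the second Zfp521 probe, at a log2 level of 5.36 while the other mutant pools lay between 4.61 and 4.80. It was the 1 array that detected this probe.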

How the results depend on the processing

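The number of members that passed was 0 under all 21 alternatives (other background offset, processed table, both probe filters, chip or replicate number as a block, array weights, each chip alone, each pool left out), with adjusted p from 0.71 to 1.00. The count of all probes that passed was 4 on BeadChip 1 alone and 1 on BeadChip 2 alone, each with 3 pools against 3, and ran from 21 to 36 with 1 pool left out. Changes near 0 turned sign on 1 chip: Th at 0.073, Slc17a8 at -0.012 and Tspan8 at -0.066 on BeadChip 2, and Tafa4 at 0.041 on BeadChip 1. With 1 pool left out the ranges were -0.088 to 0.035 for Th, -0.020 to 0.15 for Slc17a8, -0.11 to 0.033 for Tafa4, 0.095 to 0.18 for Zfp521, 0.060 to 0.11 for P2ry1 and -0.036 to 0.14 for Tspan8; the cause was not tested. Zfp521 and P2ry1 kept their sign under all 21. Deviations of same-numbered pools correlated between -0.12 and 0.19, over 0.1 for 3 of 6 numbers, and 3 of 12 arrays correlated best with their own number. Such weak correlations over few pools do not decide whether the numbers pair the pools. With the replicate block 23 probes and 0 members passed. The SE with this block was 0.083 for Th and 0.086 for Tafa4, beside 0.13 and 0.12 without it, and it changed less for the other members. The correlation of Tafa4 and P2ry1 was 0.89 with offset 50 and with the processed table, and 0.86 to 0.95 with 1 pool left out.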
